A study of Homo sapiens with 21 samples.

Results

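EMX1, EMX2 and EMX2OS were followed through a pulse of GSX2 in differentiating human cells. They are 3 of the 61268 features of the count table, taken by their gene names, and all 3 had enough reads to be tested. EMX1 and EMX2 encode homeodomain transcription factors related to empty spiracles of Drosophila, and EMX2OS is a long non-coding RNA transcribed from the opposite strand across the start of EMX2.

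In the mouse forebrain, Emx1 and Emx2 are expressed in progenitors of the dorsal telencephalon, the pallium, from which the cortex and hippocampus form. Mouse Emx2 is required for growth of the hippocampus and of caudal and medial cortex, and it acts there in graded fashion against rostral patterning factors. GSX2 is the homeodomain factor of the lateral ganglionic eminence (LGE), the ventral neighbour of the pallium and the source of striatal neurons, where mouse Gsx2 keeps pallial genes out of the ventral territory. The study's title places the series in that field, as a test of transcriptional repression by GSX2.

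The cells were H9, a human embryonic stem cell line, carrying a wild-type GSX2 coding sequence with a FLAG tag behind the doxycycline-responsive TRE3G promoter (TRE3G-2xFLAG GSX2 WT). All were differentiated toward an LGE-like fate with LDN193189, SB431542 and XAV939, and later with IWP2 and Activin A. The 12 h Dox group received 100 ng/mL doxycycline from Day 10, and the 24 h and 48 h Dox groups had the same 12 h of doxycycline and were collected after it. NoDox groups had the transgene and the same differentiation without the drug at 12, 24 and 48 h, and a Day 10 group gave the starting level. Each of the 7 groups had 3 libraries of polyA RNA, 21 in all, from a single transgenic line. Since doxycycline was never given without the transgene, effects of drug and transgene cannot be told apart. Whether replicates were separate cultures is not stated, so the spread on which p-values rest may be technical.

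EMX2 lies on chromosome 10 of hg38, from 117542445 to 117549546 on the plus strand, with 3261 exon bases in the count table. EMX2OS runs the other way, from 117473215 to 117545068 on the minus strand, with 8918 exon bases. Its transcription start lies 2623 bases inside the EMX2 interval, and its far end lies 69.2 kb beyond the EMX2 start. The exons of the pair share 348 bases, which is 10.7% of the EMX2 exon length and 3.9% of that of EMX2OS. The library kit keeps strand, but the strand setting of the counting is not given in the sources used here, so reads within the shared bases cannot be assigned with certainty. EMX1 lies apart from this pair, on chromosome 2, from 72916260 to 72936071 on the plus strand, with 5472 exon bases.

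Homeodomain proteins of the GSX class are known to bind sites with a TAAT core, and the letters TAATTA were searched on both strands of the RefSeq promoter of EMX2, 250 bases before to 50 after the RefSeq start. The window held the letters once, starting 30 bases before that start, and TAATTA reads the same on both strands. EMX1 and EMX2OS had no entry in the promoter set used, so of the 3 genes only EMX2 could be searched. The stretch around the TAATTA match is shown, with the match in capitals. It lies at chr10:117542704-117542733 (GRCh38.p14, plus strand).
EMX2 promoter: tgatccccgcacTAATTAggctcatgaact
The count table starts EMX2 further upstream than RefSeq does, so these 30 bases are exonic for EMX2 there, and none of them is in an EMX2OS exon. Of 35116 RefSeq promoter windows of the same length, 4.84% held TAATTA and 50.2% held TAAT on either strand. In the EMX2 window TAAT stood at 96 bases before the start and again within TAATTA, on each strand. A match describes the letters in this window, and binding was not measured here.

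Libraries held 14.4 to 33.8 M counts, and levels are given as CPM, the count scaled to library size with TMM factors. The transgene stood at 876 ± 114, 19.5 ± 5.80 and 0.934 ± 0.05 CPM in the Dox groups at 12, 24 and 48 h (SD, n = 3 each), against 0.135 to 0.279 CPM as means of the NoDox groups. Reads counted for GSX2, whose coding sequence the transgene shares, averaged 288 ± 9.73, 6.28 ± 2.73 and 1.96 ± 0.0609 CPM in the Dox groups and 8.62 ± 1.80, 12.7 ± 1.78 and 11.1 ± 1.92 CPM in the NoDox groups. The 12 h Dox replicate 3 and the Day 10 replicate 1 stood apart from their groups by a chi-square comparison of replicates, and member effects and 12 h list counts that rest on them are also given without them. Of 13 LGE markers, all were detected at Day 10, among them DLX2 at 27.5 ± 6.93 CPM and GAD1 at 8.30 ± 1.12 CPM.

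EMX2 was the most abundant of the 3 genes per base of exon at Day 10. Per kb of exon it averaged 87.3 CPM there, against 24.2 CPM per kb for EMX2OS and 1.09 CPM per kb for EMX1. EMX1 was therefore a trace transcript throughout, with 6 to 141 reads per library, and its values carry more counting error than those of the other two.

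Doxycycline brought EMX2 down to a small remainder within 12 h. EMX2 stood at 9.30, 8.93 and 10.4 CPM in the 12 h Dox libraries, against 270, 233 and 238 CPM in the 12 h NoDox libraries. Every 12 h Dox library lay far below every NoDox library. The Dox mean was 3.87% of the NoDox mean, a 25.9-fold difference, and still rested on 204 to 260 reads per library.

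EMX2OS moved with it. EMX2OS had 10.1, 10.3 and 9.33 CPM in the 12 h Dox libraries, against 212, 216 and 220 CPM in the 12 h NoDox libraries. The groups did not overlap, and the Dox mean was 4.59% of the NoDox mean, 21.8-fold lower.

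EMX1 fell less at this time. EMX1 had 0.894, 0.731 and 0.510 CPM in the 12 h Dox libraries, from 25, 19 and 10 reads, against 1.94, 1.46 and 1.32 CPM in the 12 h NoDox libraries, from 38, 32 and 30 reads. The groups did not overlap, and the Dox mean was 45.3% of the NoDox mean.

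All 3 genes passed the test at 12 h in the same direction. In that comparison 39.7% of all 19655 genes tested passed, 19.9% as lower and 19.8% as higher, so a call by itself was common and the sizes carry more information. The log2 fold change was -4.70 ± 0.11 for EMX2 (approximate SE, adjusted p = 6.75e-22), -4.44 ± 0.12 for EMX2OS (adjusted p = 8.78e-20) and -1.09 ± 0.35 for EMX1 (adjusted p = 0.0134). The median over all genes tested was 0.01. With library totals as the only scaling that median was 0.187, and 7340 genes were called higher and 2213 lower, against 3898 and 3912 with TMM. The 3 values were then -4.52 for EMX2, -4.26 for EMX2OS and -0.91 for EMX1, all still called. Without the libraries that stood apart the values were -4.76 for EMX2, -4.40 for EMX2OS and -0.93 for EMX1, all still past the threshold. The EMX1 call at 12 h was lost without the 12 h NoDox replicate 1 (adjusted p = 0.0678). In bulk RNA, fewer cells with a transcript and less RNA per cell cannot be told apart.

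**Figure D1:**
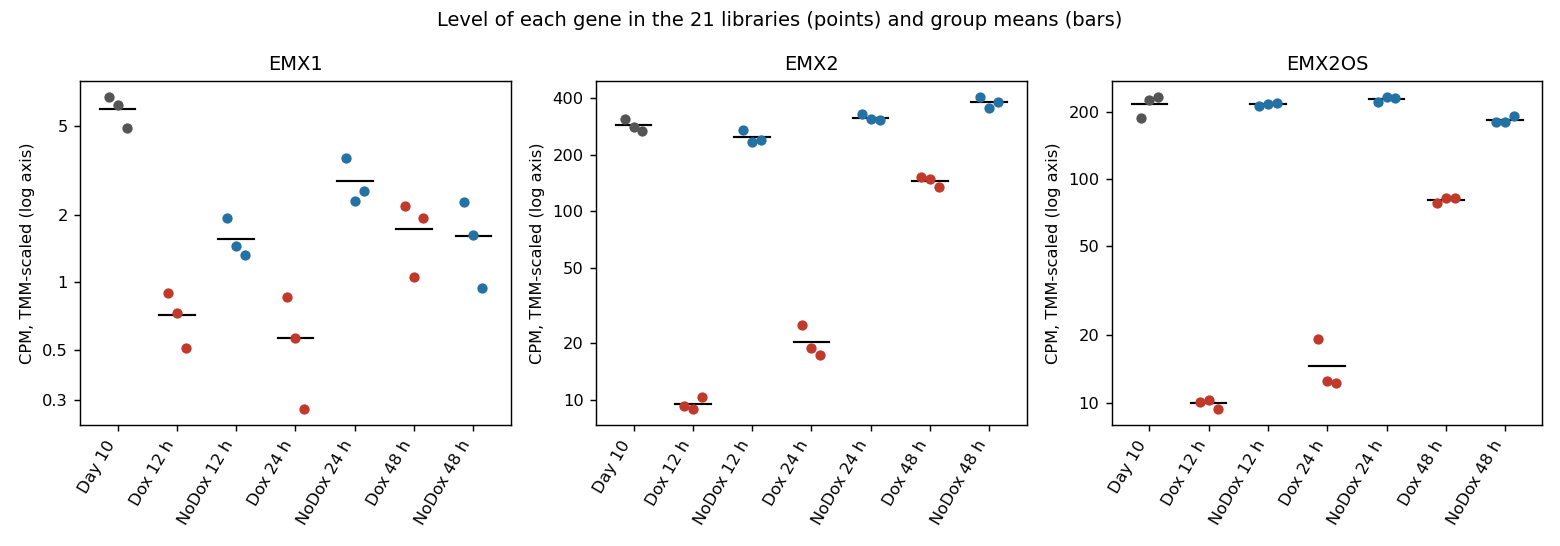
CPM with TMM scaling (log axes, a separate range for each gene) of EMX1, EMX2 and EMX2OS in the 21 libraries (points, replicates 1 to 3 from left to right) with group means (bars), Day 10 in grey, Dox in red and NoDox in blue. EMX2 and EMX2OS lie near 10 CPM in the 12 h Dox libraries and have risen by 48 h, while EMX1 overlaps between Dox and NoDox only at 48 h.

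At 24 h, 12 h after the drug period, EMX2 and EMX2OS were still low. EMX2 had 25.1, 18.8 and 17.3 CPM in the 24 h Dox libraries, against 327, 309 and 306 CPM in the 24 h NoDox libraries. EMX2OS had 19.2, 12.5 and 12.3 CPM in the 24 h Dox libraries, against 222, 233 and 230 CPM in the 24 h NoDox libraries. In both genes replicate 1 was the highest of the 24 h Dox libraries, and no Dox library came near the NoDox range. The Dox means were 6.50% of the NoDox mean for EMX2 and 6.40% for EMX2OS.

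EMX1 had its lowest group mean in 24 h Dox, though the range overlapped that of 12 h Dox. EMX1 had 0.865, 0.565 and 0.271 CPM in the 24 h Dox libraries, from 21, 13 and 6 reads, against 3.61, 2.31 and 2.56 CPM in the 24 h NoDox libraries. The groups did not overlap, and the Dox mean was 20.1% of the NoDox mean, 4.98-fold lower.

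All 3 genes were called lower at 24 h, in a comparison in which 33.9% of all genes tested were called, 16.9% as lower and 17% as higher. The log2 fold changes were -3.94 ± 0.10 for EMX2 (adjusted p = 2.8e-20), -3.96 ± 0.11 for EMX2OS (adjusted p = 1.33e-18) and -2.31 ± 0.33 for EMX1 (adjusted p = 2.4e-06). EMX2 and EMX2OS had nearly the same effect here, while the transgene was down to a small part of its 12 h level.

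By 48 h EMX2 and EMX2OS had risen in the Dox libraries but remained below NoDox, and EMX1 showed no difference past the threshold. EMX2 had 152, 149 and 134 CPM in the 48 h Dox libraries, against 405, 354 and 379 CPM in the 48 h NoDox libraries. EMX2OS had 78.5, 82.0 and 82.8 CPM in the 48 h Dox libraries, against 180, 180 and 192 CPM in the 48 h NoDox libraries. Neither pair of groups overlapped, with Dox means at 38.3% of the NoDox mean for EMX2 and 44.1% for EMX2OS. EMX1 had 2.19, 1.06 and 1.94 CPM in the 48 h Dox libraries, against 2.28, 1.63 and 0.942 CPM in the 48 h NoDox libraries, and these ranges overlapped almost wholly.

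At 48 h 18.2% of all genes tested were called, 8.94% as lower and 9.23% as higher, and EMX2 and EMX2OS were among the lower ones. Their log2 fold changes were -1.38 ± 0.09 (adjusted p = 4.61e-11) and -1.18 ± 0.10 (adjusted p = 6.32e-09). Library totals alone gave 1017 higher and 2835 lower genes at 48 h, against 1814 and 1757 with TMM. For EMX1 the value was 0.09 ± 0.32 (adjusted p = 0.886), with an approximate 95% interval of -0.54 to 0.72. That interval leaves room for a fall or a rise of moderate size, so the EMX1 level is not shown to be equal in the groups.

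The size of the Dox effect differed between times, by a test of the difference itself. From 12 to 24 h the EMX2 effect shrank by 0.76 ± 0.14 on the log2 scale (adjusted p = 0.000193) and the EMX2OS effect by 0.48 ± 0.16 (adjusted p = 0.0209). In the same step the EMX1 effect moved the other way, by -1.22 ± 0.50, which did not pass (adjusted p = 0.0664), while 30.9% of all genes tested were called. From 24 to 48 h all 3 effects moved toward 0, by 2.56 ± 0.13 for EMX2, 2.78 ± 0.14 for EMX2OS and 2.40 ± 0.47 for EMX1 (adjusted p = 2.34e-13, 1.21e-12 and 0.000356), where 25.8% of genes were called and 12.7% were called as higher. Over the whole span from 12 to 48 h, in which 34.4% of genes were called, the differences were 3.31 ± 0.14 for EMX2 and 3.26 ± 0.15 for EMX2OS (adjusted p = 4.81e-16 and 1.71e-14), and 1.18 ± 0.48 for EMX1 (adjusted p = 0.0551). Without the libraries that stood apart, the differences from 12 to 24 h were 0.82 for EMX2, 0.44 for EMX2OS and -1.38 for EMX1, the last then passing (adjusted p = 0.0308), and those from 12 to 48 h were 3.37, 3.22 and 1.02 (for EMX1 adjusted p = 0.0913). The EMX2OS difference from 12 to 24 h is the least secure of these, since it was lost without the 24 h Dox replicate 1 (adjusted p = 0.136), without the 12 h Dox replicate 3 (0.0553) and with scaling by library totals alone (0.175). With replicate number as a block in the fit, the EMX1 differences from 12 to 24 h and from 12 to 48 h were -1.17 and 1.23. Both then passed (adjusted p = 0.0269 and 0.0136).

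**Figure D2:**
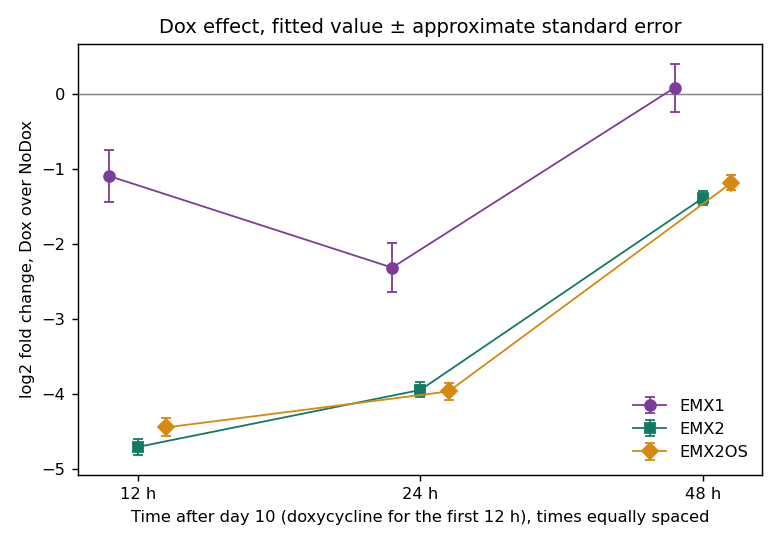
Fitted log2 fold change of Dox over NoDox for each gene at 12, 24 and 48 h after Day 10 (points, with bars of 1 approximate standard error), the times drawn equally spaced and the genes set slightly apart. EMX2 and EMX2OS start near -4.70 and -4.44 and reach -1.38 and -1.18 at 48 h, while EMX1 is at its lowest at 24 h with -2.31.

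The Dox libraries also fell below the level from which the cells started. Every Dox library had less EMX2 than the Day 10 libraries, which had 309, 279 and 266 CPM. The log2 fold change of Dox over Day 10 was -4.90 ± 0.11, -3.80 ± 0.10 and -0.97 ± 0.09 for EMX2 at 12, 24 and 48 h. EMX2OS was also lower in every Dox library than at Day 10, where it had 187, 226 and 234 CPM, and its changes were -4.44 ± 0.12, -3.88 ± 0.11 and -1.41 ± 0.10 at those times. The 48 h deficit against Day 10 was thus 1.41 on the log2 scale for EMX2OS and 0.97 for EMX2. The same held for EMX1, with 6.76, 6.21 and 4.91 CPM at Day 10 and changes of -3.01 ± 0.30, -3.35 ± 0.31 and -1.78 ± 0.28.

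All 9 of these values passed, the largest adjusted p being 3.91e-06 for EMX1 at 48 h. Of all genes tested, 48.5%, 37.3% and 55.2% were called against Day 10 at 12, 24 and 48 h, and 24%, 19% and 27% were called lower. These comparisons share the Day 10 libraries, of which replicate 1 stood apart. Leaving it out together with the 12 h Dox replicate 3 gave -4.90, -3.73 and -0.91 for EMX2, -4.49, -3.97 and -1.50 for EMX2OS, and -2.76, -3.26 and -1.69 for EMX1.

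Within the Dox groups themselves, EMX2 was higher at 24 h than at 12 h by 1.11 ± 0.11 (adjusted p = 1.36e-08) and EMX2OS by 0.56 ± 0.12 (adjusted p = 0.000777), with 42.6% of all genes called. EMX1 did not pass in that step, at -0.34 ± 0.41 (adjusted p = 0.536). Without the 12 h Dox replicate 3 and the Day 10 replicate 1 these steps were 1.17 for EMX2, 0.52 for EMX2OS and -0.50 for EMX1, with the same calls. From 24 to 48 h all 3 rose, by 2.83 ± 0.10 for EMX2, 2.47 ± 0.11 for EMX2OS and 1.57 ± 0.37 for EMX1 (adjusted p = 2.03e-17, 8.03e-15 and 0.00068). Of all genes tested 58.9% were called in that step, 29.4% as higher.

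Without doxycycline the 3 genes did not follow 1 course. EMX2 averaged 285 ± 22.1 CPM at Day 10 and 247 ± 20.1, 314 ± 11.6 and 379 ± 25.5 CPM in the NoDox groups at 12, 24 and 48 h. Its 48 h NoDox level was above Day 10 by 0.41 ± 0.09 on the log2 scale (adjusted p = 0.000487), while the 12 and 24 h levels did not pass (adjusted p = 0.0766 and 0.289). Without the libraries that stood apart the 12, 24 and 48 h values were -0.14, 0.20 and 0.48, with the same calls. The 3 NoDox groups climbed, with 24 h above 12 h by 0.35 ± 0.09 (adjusted p = 0.00295) and 48 h above 24 h by 0.27 ± 0.09 (adjusted p = 0.0153). The second step was lost without the 24 h NoDox replicate 3 (adjusted p = 0.0561) or the 48 h NoDox replicate 1 (0.0822), and with library totals as the only scaling (0.17, adjusted p = 0.0916).

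EMX2OS, which shares the locus, did not climb with it. It averaged 216 ± 24.9 CPM at Day 10 and 216 ± 4.01, 229 ± 5.41 and 184 ± 7.04 CPM in the NoDox groups at 12, 24 and 48 h. The 48 h NoDox level was below the 24 h level by a log2 fold change of -0.31 ± 0.09 (adjusted p = 0.0101), the step in which EMX2 was higher with TMM scaling. Against Day 10 the 48 h value was -0.23 ± 0.09 and missed the threshold (adjusted p = 0.0528), but passed at -0.32 without the libraries that stood apart (adjusted p = 0.00373). The 12 and 24 h values against Day 10 were 0.00 and 0.08, and -0.091 and -0.010 without those libraries, none of them past the threshold.

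EMX1 was below its Day 10 level in every NoDox group. It averaged 5.96 ± 0.954 CPM at Day 10 and 1.57 ± 0.323, 2.83 ± 0.693 and 1.62 ± 0.671 CPM in the NoDox groups at 12, 24 and 48 h. The log2 fold changes against Day 10 were -1.92 ± 0.27, -1.04 ± 0.24 and -1.87 ± 0.27 (adjusted p = 3.9e-06, 0.00335 and 3.88e-06), and -1.83, -0.95 and -1.78 without the libraries that stood apart, all still called. EMX1 thus fell in the first 12 h with no drug, and part of its low level in the Dox groups was shared by NoDox. It was higher at 24 h than at 12 h by 0.88 ± 0.28 and lower at 48 h than at 24 h by -0.83 ± 0.29 (adjusted p = 0.0167 and 0.0219). Both steps were lost when the 24 h NoDox replicate 1, the library with the highest EMX1 level of its group, was left out. The first was also lost without the 12 h NoDox replicate 2 or 3, and the second without the 48 h NoDox replicate 2 or 3.

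Of the genes tested, 31.8%, 17.3% and 41.7% were called in NoDox against Day 10 at 12, 24 and 48 h, and 35.1% and 41.4% in the 2 steps between NoDox groups. Ordered from high to low, the EMX2 group means ran from 48 h NoDox through 24 h NoDox, Day 10 and 12 h NoDox to 48 h, 24 h and 12 h Dox. The ranges of 24 h NoDox, Day 10 and 12 h NoDox overlapped as neighbours, and each Dox group was apart from the next. EMX2OS had the same order among the Dox groups, with 24 h NoDox at the top and 12 h NoDox, Day 10 and 48 h NoDox overlapping as neighbours below it. For EMX1 the order was Day 10, 24 h NoDox, 48 h Dox, 48 h NoDox, 12 h NoDox, 12 h Dox and 24 h Dox, with overlap among the middle 3 and between the last 2.

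The ratio of 2 genes in a library does not depend on how the library is scaled. Per kb of exon, EMX2OS reads were 38.3%, 26.0% and 20.5% of EMX2 reads in the Dox groups at 12, 24 and 48 h, and 32.2%, 26.6% and 17.8% in the NoDox groups. At Day 10 the share was 28.0%. The log2 ratio of the counts differed between Dox and NoDox by 0.25, -0.04 and 0.20 at the 3 times (exact two-sided permutation test, p = 0.3, 0.7 and 0.1). The 48 h groups did not overlap, and 0.1 is the smallest p that 3 libraries against 3 can give. The EMX2OS share was lower at each later time in Dox and in NoDox alike, and successive groups of 1 arm did not overlap.

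EMX1 made up a larger share beside EMX2 in every Dox group. Per kb, EMX1 reads were 4.51%, 1.59% and 0.715% of EMX2 reads in the Dox groups at 12, 24 and 48 h, and 0.378%, 0.534% and 0.253% in the NoDox groups. The Day 10 share was 1.24%. The log2 ratio was higher in Dox by 3.55, 1.57 and 1.5, and no Dox library overlapped NoDox at any of the 3 times (exact two-sided permutation test, p = 0.1 each, the smallest possible).

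**Figure D3:**
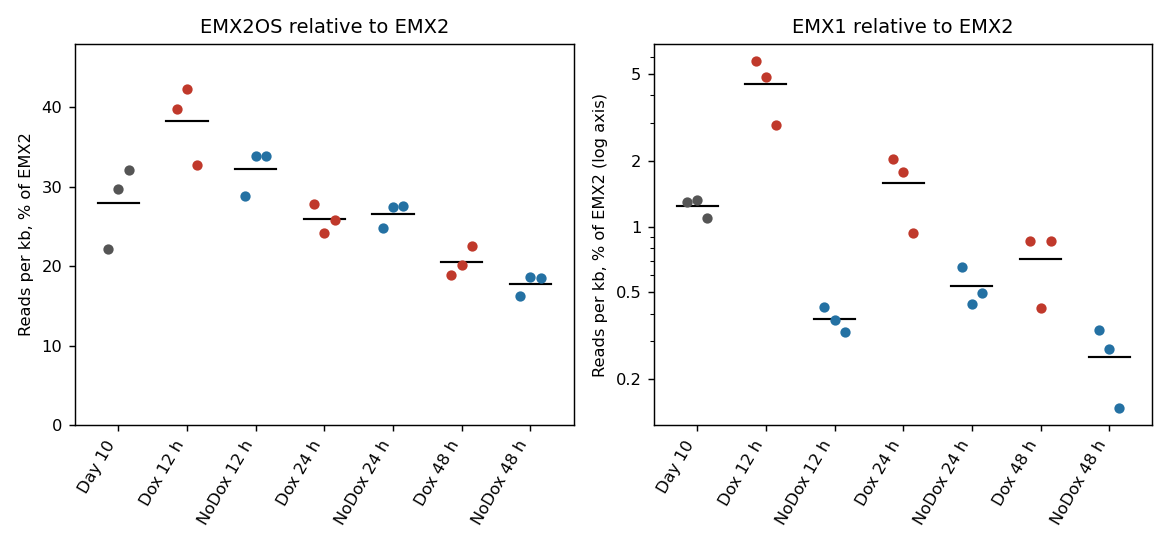
EMX2OS (left, linear axis) and EMX1 (right, log axis) reads per kb of exon as a percentage of EMX2 reads per kb in each library (points), with group means (bars), Day 10 in grey, Dox in red and NoDox in blue. The EMX2OS share overlaps between Dox and NoDox at 12 and 24 h, while the EMX1 share is higher in every Dox library, with means of 4.51% in Dox and 0.378% in NoDox at 12 h.

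To see which other transcripts took a like course, the log2 CPM profile of each gene was centred on its own mean. The root-mean-square difference from each member was then taken over the 21 libraries. It was ranked among 13527 tested genes that averaged 2 CPM or more. Clone-style names, LINC RNAs, the members, GSX2 and the transgene were left out of that set. EMX2 and EMX2OS differed from each other by 0.37, EMX1 from EMX2 by 1.38 and EMX1 from EMX2OS by 1.2. Nearest to EMX2 were EDNRB, the endothelin B receptor (0.30), UNCX, a homeobox factor (0.40), PCSK1, a prohormone convertase (0.54), SHISA2, which in frog embryos restrains WNT and FGF receptors (0.57) and GPR149, an orphan receptor (0.59). EDNRB averaged 2.17, 5.60 and 42.5 CPM in the Dox groups at 12, 24 and 48 h, and 87.1, 73.7 and 72.9 CPM in the NoDox groups. UNCX averaged 0.482, 1.88 and 10.2 CPM in the Dox groups and 18.1, 23.8 and 21.5 CPM in the NoDox groups, so it too was low at 12 h and had risen in part by 48 h.

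EMX2OS had 4 of these neighbours in profile as well, namely SHISA2 (0.34), PCSK1 (0.36), EDNRB (0.38) and UNCX (0.55), with LHX9, a LIM homeobox factor (0.55), and the cannabinoid receptor CNR1 (0.57). SHISA2 averaged 9.06, 17.7 and 83.7 CPM in the Dox groups and 210, 170 and 112 CPM in the NoDox groups, with a NoDox course that declined over time. EMX1 had a different set, led by the homeobox factor NKX6-1 (0.52), the adhesion molecules VCAM1 and CDH4 (0.56 and 0.63), the extracellular matrix protein SPON1 (0.56), the fucosyltransferase FUT9 (0.56) and the growth factor PTN (0.67). VCAM1 averaged 5.90, 4.79 and 11.8 CPM in the Dox groups, 19.5, 27.1 and 14.2 CPM in the NoDox groups and 28.6 CPM at Day 10. Its Dox effects were -1.71, -2.50 and -0.28 on the log2 scale, with the lowest at 24 h as in EMX1. The likeness includes the drop with Dox and is a description of these libraries.

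Around EMX2, none of the tested genes had a 12 h change of the size seen at EMX2 and EMX2OS. Within 500 kb of the EMX2 start the count table had 16 features besides the pair, of which 5 were tested, all on the side of lower coordinates. PDZD8, 167.0 kb away, did not pass at any time, with log2 fold changes of -0.03, -0.16 and 0.06. SHTN1, at 415.9 kb, was lower at 12 h by -0.31 ± 0.07 and higher at 24 h by 0.70 ± 0.07. SLC18A2, the vesicular monoamine transporter, was below 1 CPM in every group and passed only at 24 h (-2.01 ± 0.66, adjusted p = 0.0176). The clone-named feature ENSG00000277879 was higher at 12 h by 0.87 ± 0.33 and lower at 48 h by -1.40 ± 0.35.

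VAX1, 404.1 kb from EMX2, is a homeobox gene of the same wider family, known for the ventral forebrain and optic stalk. It averaged 21.7, 124 and 53.1 CPM in the Dox groups at 12, 24 and 48 h, and 39.7, 26.5 and 34.3 CPM in the NoDox groups. VAX1 was thus lower at 12 h (-0.87 ± 0.10, adjusted p = 1.38e-07) and higher at 24 h (2.23 ± 0.10, adjusted p = 7.39e-16) and 48 h (0.63 ± 0.10, adjusted p = 7.24e-05). At 24 h EMX2 was 15.4-fold lower in the same libraries. Of the other EMX-related genes listed, VAX2, at 0.557 to 1.42 CPM as group means, did not pass at any time (0.96 ± 0.39, 0.43 ± 0.33 and 0.98 ± 0.40) and NOTO had too few reads to be tested. Among them 1 gene was called higher at 12 h with library totals as the only scaling, with no filter on low counts and without the 12 h Dox replicate 1 or 2, and 2 were higher at 48 h with only the groups compared in the fit.

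Near EMX1, 10 of 19 features were tested. SPR, sepiapterin reductase, 28.9 kb upstream, was higher in Dox at 12 h by 1.13 ± 0.19 (adjusted p = 2.14e-05), while EMX1 was lower. EXOC6B, 90.2 kb upstream, did not pass at any time. Of the 10, 4 were higher and 1 was lower at 12 h, 1 was higher at 24 h, and 1 was higher and 3 were lower at 48 h. Over all genes tested, 19.8% and 19.9% were called higher and lower at 12 h, 17% and 16.9% at 24 h, and 9.23% and 8.94% at 48 h, so with 10 genes these counts are no result about the neighbours. FBXO41 had the largest of the other called changes, 0.80 ± 0.15 at 12 h.

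**Figure D4:**
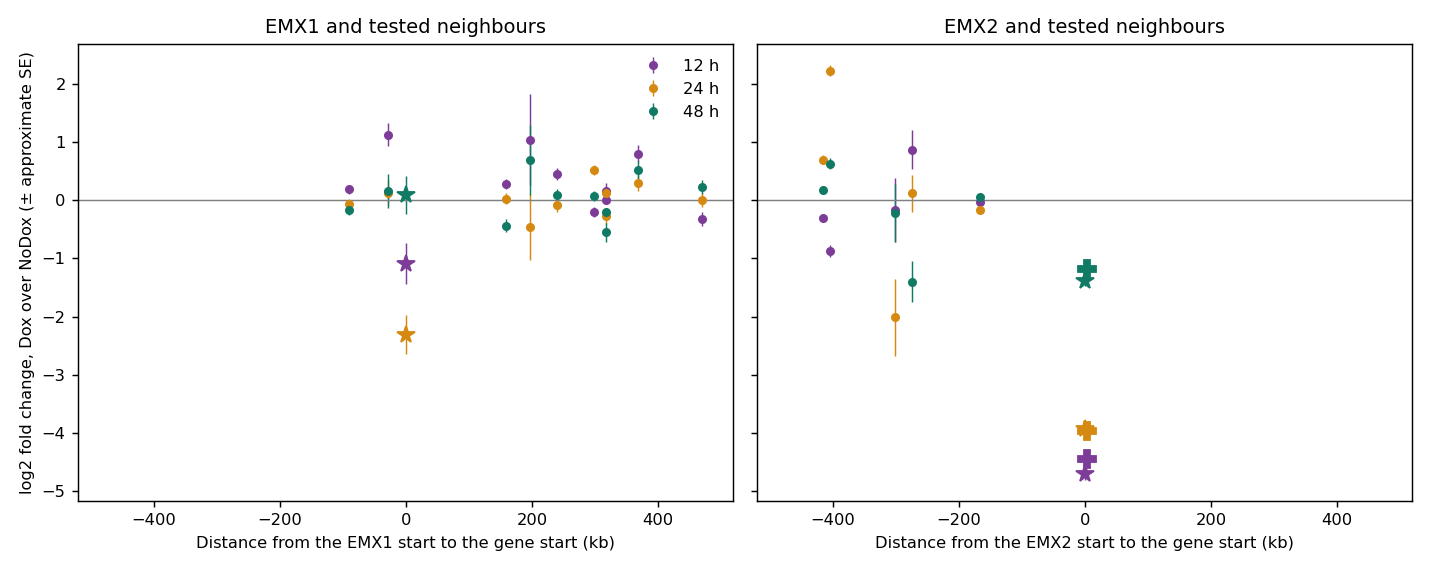
Log2 fold change of Dox over NoDox (bars, 1 approximate standard error) for tested genes within 500 kb of the EMX1 start (left) and the EMX2 start (right), by distance between starts in kb, at 12 h (purple), 24 h (orange) and 48 h (green). Stars are EMX1 or EMX2, the plus signs are EMX2OS and circles are neighbours. EMX2 and EMX2OS lie at -4.70 and -4.44 at 12 h, while VAX1 at 404.1 kb is at 2.23 at 24 h.

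Other regulators of the pallium were also lower at 12 h. Of 20 listed pallial regulators, all tested, 18 were lower and none was higher at 12 h, with a median log2 fold change of -2.00 against 0.01 over all genes. Those with the largest changes were EOMES, the T-box factor of intermediate progenitors (-5.47 ± 0.17), the proneural factor NEUROG1 (-5.46 ± 0.20), LHX9 (-3.94 ± 0.25) and TFAP2C (-3.91 ± 0.38). The EMX2 and EMX2OS changes lay between those of NEUROG1 and LHX9. PAX6, which marks neural progenitors more widely, had a smaller one (-2.39 ± 0.07). At 24 h 13 were lower and 5 were higher (median -0.83), and at 48 h 5 were lower and 3 higher (median -0.16), or 6 and 5 with DESeq2. Over all genes tested, 19.9% were called lower and 19.8% higher at 12 h, 16.9% and 17% at 24 h, and 8.94% and 9.23% at 48 h. These shares are the background for each list below as well, and the 3 pallial regulators higher at 48 h lie near it. Without the libraries that stood apart the 12 h count was again 18 lower and 0 higher. At 48 h PAX6 was at 219 CPM in Dox and 212 CPM in NoDox (adjusted p = 0.666), while EOMES was still lower at -1.86 ± 0.13, as EMX2 was.

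Signals on either side of the EMX2 territory were counted as well. In the mouse, WNT and BMP signals of the cortical hem promote Emx2, and rostral FGF8 limits it. Of 15 tested hem and dorsal signal genes, 9 were lower and 1 higher at 12 h (median -0.73), 3 lower and 4 higher at 24 h (median 0.01), and 4 lower and 3 higher at 48 h (median 0.08). Over all genes 16.9% were called lower and 17% higher at 24 h, so the 24 h counts lie near that background. At 12 h the count of higher genes was 2 with library totals, with no filter, and without the 12 h NoDox replicate 2 or the 12 h Dox replicate 1, and the counts were 9 and 1 without the libraries that stood apart. RSPO3, an R-spondin that amplifies WNT signalling, averaged 0.395, 1.37 and 1.55 CPM in the Dox groups and 11.9, 7.61 and 4.56 CPM in the NoDox groups, and was called lower at each time. WNT7B (-1.98 ± 0.11), RSPO2 (-2.13 ± 0.52) and RSPO1 (-1.83 ± 0.12) were also lower at 12 h. The gene called higher at 12 h was AXIN2 (0.53 ± 0.09). Those called higher at 24 h were WNT8B (3.49 ± 0.58) and BMP4 (1.29 ± 0.49), both below 1 CPM then, with BMP7 (0.84 ± 0.08) and WNT7B (0.73 ± 0.11). Those called lower at 24 h were RSPO3 (-2.47 ± 0.19), WNT2B (-1.33 ± 0.12) and RSPO1 (-0.99 ± 0.12).

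Of 15 rostral FGF genes, 10 were lower and 1 higher at 12 h (median -0.60), 2 lower and 10 higher at 24 h (median 1.57), and 3 lower and 8 higher at 48 h (median 0.36). With library totals 5 were lower and 7 higher at 48 h, and 1 was lower at 24 h with no filter or when the 24 h NoDox replicate 1 or 2 or the 24 h Dox replicate 2 or 3 was left out. Without the libraries that stood apart the 12 h counts were again 10 and 1. FGF8 averaged 11.4, 61.2 and 20.4 CPM in the Dox groups at 12, 24 and 48 h, and 15.7, 7.04 and 12.5 CPM in the NoDox groups. FGF8 was called lower at 12 h (-0.47 ± 0.12 on the log2 scale, adjusted p = 0.00271), when the EMX2 effect was -4.70. At 24 h FGF8 was 3.13 ± 0.12 higher, when EMX2 was 3.94 lower, and at 48 h FGF8 was 0.71 ± 0.12 higher. DUSP6, a feedback target of FGF signalling, changed from lower at 12 h (-2.62 ± 0.12) to higher at 24 h (2.66 ± 0.11). At 12 h FGF19 (-5.51 ± 0.55), ETV1 (-1.73 ± 0.08) and SPRED1 (-1.07 ± 0.07) were lower too. FGF19 averaged 1.49 CPM in 12 h NoDox and 0.0289 CPM in 12 h Dox. The Dox value is below the floor of 3 counts over the group (0.0408 CPM), so the size of its fall is uncertain. The part of these signals in the EMX2 course was not tested.

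Markers of the LGE did not rise as EMX2 fell at 12 h. Of 13 LGE markers, 12 were lower and none higher at 12 h (median -2.24), and their summed level was 168 to 196 CPM in the 12 h Dox libraries and 428 to 456 CPM in the 12 h NoDox libraries. GSX1 had 0 reads in the 12 h Dox libraries and was at least 34.6-fold lower than in NoDox, taking 3 counts over the group as its floor, and placing it at that bound left the median at -2.24. ISL1 (-4.21 ± 0.29) and DLX6 (-2.63 ± 0.32) were among the lower ones. At 24 h 9 were lower and 3 higher, and at 48 h 2 were lower and 4 higher, with DLX2 at 110 ± 10.6 CPM in Dox and 39.9 ± 12.0 CPM in NoDox (1.47 ± 0.27, adjusted p = 0.00138). Over all genes 17% were called higher at 24 h and 8.94% lower at 48 h, so the 3 higher and the 2 lower markers lie near that background. With only the groups compared in the fit, 1 was lower and 7 were higher at 48 h, and 1 was lower with DESeq2 or without the 48 h NoDox replicate 2 or 3 or the 48 h Dox replicate 1 or 3. Without the libraries that stood apart 11 were lower and 0 higher at 12 h. The summed level was 644 to 760 CPM in Dox and 509 to 574 CPM in NoDox at 24 h. At 48 h it was 713 to 790 CPM in Dox and 543 to 612 CPM in NoDox. The sum in Dox was thus above NoDox at both later times while EMX2 was below. SIX3 was the largest part of the 24 h sum, at 389 CPM in Dox and 209 CPM in NoDox. That sum does not speak for the list as a whole, since 9 of 13 markers were lower at 24 h.

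EMX2 is also expressed in the urogenital system, and marker lists of other cells were read beside it. Of 10 urogenital markers 5 were tested, and LHX1, which is a neural gene too, was the sole one called at 12 h (-2.08 ± 0.21). With library totals 1 urogenital marker was also called higher at 12 h, and without the 12 h NoDox replicate 1, 2 were called lower. The list summed to 3.36 to 4.38 CPM in the 12 h Dox libraries and 7.17 to 9.58 CPM in the 12 h NoDox libraries. Of 6 pluripotency markers 3 were tested, and LIN28A (-0.94 ± 0.07) and DPPA4 (-0.69 ± 0.06) were lower at 12 h. POU5F1, NANOG and TDGF1 had too few reads to be tested. The list sums were 207 to 229 CPM in Dox and 314 to 336 CPM in NoDox. They rest mostly on LIN28A, DPPA4 and DNMT3B, at 82.1, 148 and 93.6 CPM in 12 h NoDox. Of 6 neural crest markers 4 were tested, of which 2 were lower and 1 higher at 12 h, with sums of 320 to 378 CPM in Dox and 786 to 834 CPM in NoDox. TFAP2A (-2.10 ± 0.31) was lower and ERBB3 (0.59 ± 0.13) was higher. The 12 h counts of these 3 lists were the same without the libraries that stood apart. No listed marker of these 3 lists was at 0 in all 21 libraries, and the part of such cells in the EMX levels was not tested.

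At 24 h the sums were 3.83 to 5.70 CPM in Dox and 8.40 to 10.3 CPM in NoDox for the urogenital list, and 263 to 274 CPM in Dox and 262 to 264 CPM in NoDox for the pluripotency list. At 48 h they were 5.88 to 6.69 CPM in Dox and 9.21 to 12.0 CPM in NoDox for the urogenital list, and 248 to 256 CPM in Dox and 263 to 268 CPM in NoDox for the pluripotency list. The pluripotency sums thus overlapped at 24 h and were slightly lower in Dox at 48 h, while EMX2 was below NoDox by more at both times. The neural crest list went the other way, with 4 of 4 tested markers higher at 24 h, among them SOX10 (1.90 ± 0.14) and TFAP2A (1.18 ± 0.26), and 2 higher and 1 lower at 48 h. Its sums were 727 to 868 CPM in Dox and 577 to 615 CPM in NoDox at 24 h, and 707 to 722 CPM in Dox and 481 to 526 CPM in NoDox at 48 h. The 1 marker lower at 48 h, ERBB3 (-0.51 ± 0.18), was not called with DESeq2, with no filter or with only the groups compared. Nor was it called without the 48 h NoDox replicate 2 or 3, or without any 1 of the 48 h Dox replicates.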

How the data were processed

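RNA was measured in 21 libraries in 7 groups of 3, taken from the labels. The authors deposited whole-number read counts per gene on hg38, and the submitters' processing notes name STAR 2.7.9 and Subread 2.0.3. Neither annotation nor strand setting is stated there. The deposited normalized signal table (19874 features, each reaching 10 counts in 3 or more samples) holds each count over 1 factor per sample, and was used in 1 alternative.

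Counts were tested with edgeR 4.0.16 (R 4.3.3, quasi-likelihood F test, robust, TMM, filterByExpr). All 7 groups were in 1 fit with 14 residual degrees of freedom, and p-values were adjusted by Benjamini-Hochberg over 19655 genes (99.918% of counts) at 0.05. The biological coefficient of variation was 7.24%. Each log2 fold change is given ± an approximate SE (the size of the change divided by the root of F), rough at few reads. Ratios had 0.5 reads added. Depth was 14.4 to 33.8 M counts, and floors cover counting error only.

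Members and gene lists were chosen with earlier results of these data known. Genes named were the 3 members, GSX2, the 6 genes most like each member, tested genes within 500 kb, the EMX-related genes, and up to 4 members of each list with the largest 12 h Dox effect; other list members may be named, and a few genes under this rule are left out here. Alternatives were DESeq2 size factors, library totals, DESeq2 1.42.0, no filter, limma 3.58.1 on log2 of the normalized value + 1, only the groups compared, a replicate block, libraries left out, and for ratios 2 reads added. The procedure was tested on simulated data.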

Additional observations from a re-analysis of the deposited data

Results flagged for a closer look

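For each gene below the Dox effects at 2 times differed by edgeR's quasi-likelihood test of the difference, adjusted over all genes tested. Between 12 and 24 h the log2 Dox effect moved by 0.76 for EMX2 and 0.48 for EMX2OS, both toward 0. Between 24 and 48 h it moved by 2.56 for EMX2, 2.78 for EMX2OS and 2.40 for EMX1. Between 12 and 48 h it moved by 3.31 for EMX2 and 3.26 for EMX2OS. The later effect was in each case nearer to 0, and the 2 effects compared rest on separate Dox and NoDox libraries.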

How the results depend on the processing

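The Dox effects of EMX2 and EMX2OS at 12, 24 and 48 h and of EMX1 at 24 h kept their direction and call under every alternative run. Of 366 values recomputed for 48 results, other than by leaving out 1 replicate, 346 kept both, 4 lost a call, 13 gained one and 3 changed sign. With 1 replicate left out, 318 of 342 kept both. Replicate numbers were not used to pair the samples in the main fit. In each comparison 0 of 3 residual correlations over all genes were above 0.1, the highest being 0.0978. That check does not exclude a replicate effect in single genes, and EMX1 was highest in replicate 1 of every group. The few EMX1 reads limit its steps, and the cause of the changes below was not tested.

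For EMX2OS, 48 h NoDox against Day 10 passed with DESeq2 size factors (-0.24), library totals (-0.31), no filter (-0.24), only the groups compared (-0.25) and the libraries that stood apart left out (-0.32). Its 12 h NoDox value against Day 10 was -0.0028 with library totals and -0.091 without the libraries that stood apart, and its 24 h NoDox value was -0.010 without them. EMX2 at 12 h NoDox against Day 10 passed with no filter (-0.19) and with the replicate block (-0.21). The 48 h step of EMX2 in NoDox was lost with library totals (0.17), as was the EMX2OS difference of effects from 12 to 24 h (0.28). With limma the EMX1 steps in NoDox were lost, at 0.81 and -0.85.

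The EMX1 difference of effects from 12 to 24 h passed with library totals (-1.41), no filter (-1.21), the replicate block (-1.17) and the libraries that stood apart left out (-1.38). The one from 12 to 48 h passed with no filter (1.17) and the replicate block (1.23). No other call of a member changed with the block.

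With 1 replicate left out, EMX1 ranged from -1.30 to -0.93 for Dox at 12 h, -0.18 to 0.41 at 48 h, 0.64 to 1.04 and -1.15 to -0.55 for its NoDox steps, and -1.66 to -0.90 and 0.91 to 1.51 for the differences from 12 to 24 h and 12 to 48 h. EMX2 ranged from -0.28 to -0.14 at 12 h NoDox against Day 10 and 0.22 to 0.32 for the 48 h NoDox step. EMX2OS ranged from -0.091 to 0.061, -0.010 to 0.14 and -0.32 to -0.17 at 12, 24 and 48 h NoDox against Day 10, and 0.23 to 0.59 for the difference from 12 to 24 h. Its log2 ratio to EMX2 at 24 h ranged from -0.087 to 0.014.

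Over all genes, library totals gave 7707 higher and 2850 lower for 12 h Dox against Day 10 (4807 and 4717 by TMM), 2415 and 7503 for Dox 24 h against 12 h (4226 and 4156), and 1914 and 5719, and 1700 and 6756, for the differences of effects from 12 h (3157 and 2917, and 3487 and 3277). Without the 24 h NoDox replicate 1, NoDox at 24 h against Day 10 gave 1118 and 945 (1738 and 1664). The 48 h Dox count of higher genes was 1041 without the 48 h NoDox replicate 2 and 1056 without the 48 h Dox replicate 1 (1814).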
